A study of Mus musculus with 8 samples.

Results

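The IL-6 receptor complex and its JAK-STAT3 relay were followed through 10 genes taken by name: the receptor chains Il6ra, Il6st, Osmr and Lifr, the kinases Jak1, Jak2 and Tyk2, the transcription factor Stat3, and the regulators Socs3 and Ptpn11. All 10 were found among the 54532 genes listed in each library, and 9 of them passed the filter on low counts, which left 12704 genes for testing. The cells were 4T1, a line from a mammary tumor of a BALB/c mouse that serves as a model of triple-negative breast cancer. They stably carried either a scramble short hairpin RNA or one against Mcts1, the gene of MCT-1 (shMCT-1), both under puromycin. Each line received an anti-mouse IL-6R antibody (anti-IL-6R) at 100 ng/ml or IgG for 48 h, and each of these 4 groups, scramble or shMCT-1 with IgG or anti-IL-6R, has 2 RNA-seq libraries. One hairpin sequence was used against Mcts1, and the sources used here do not say whether a line was a pool or a clone, so the silencing and the line that carries it cannot be told apart. They also do not say whether the 2 libraries of a group came from separate cultures, and the p-values then measure the spread between these libraries only.

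IL-6 binds the IL-6Rα chain, encoded by Il6ra, and the pair recruits gp130, encoded by Il6st, which carries the signal inward. JAK1, JAK2 and TYK2 are kinases held on the gp130 tail. Once activated they phosphorylate docking sites to which STAT3 and SHP2, the product of Ptpn11, bind. Phosphorylated STAT3 enters the nucleus and switches on genes that include Socs3, whose product binds gp130 and the kinases and shuts the signal down. The relay is known in mammary tumors for its tie to inflammation and stem-like traits. The protein side of these steps, phosphorylation included, leaves no direct trace in RNA counts.

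Library totals ran from 19839299 to 33063570 counts (median 23774335), and the shMCT-1 libraries, with at most 23448587, were all smaller than the scramble libraries, with at least 24100084. Levels are given in normalized CPM, counts scaled to the library total, itself adjusted by edgeR's TMM factor, and 1 CPM stood for 19.8 counts in the smallest library and 33.1 in the largest. The silenced gene Mcts1 had 14.96 and 11.8 CPM in the libraries of scramble + IgG, 12.6 and 13.2 in scramble + anti-IL-6R, 6.41 and 6.28 in shMCT-1 + IgG, and 6.87 and 4.99 in shMCT-1 + anti-IL-6R. It fell by 1.10 on the log2 scale across both treatments (standard error 0.12, adjusted p = 1.13e-05 from edgeR). The epithelial markers Krt8, Krt18 and Cdh1 were abundant in both lines. Krt8 lay at 1029 to 1097 CPM in scramble and 1275 to 1464 CPM in shMCT-1. Krt18 lay at 620 to 683 CPM in scramble and 885 to 982 CPM in shMCT-1, and the lines overlapped for Cdh1. Epcam lay at 3.66 to 4.84 CPM in scramble and at 50.1 to 55.3 CPM in shMCT-1. Of 5 leukocyte markers, 3, Adgre1 and Cd3e among them, had no count in any library, and the 5 together summed to 2.71 to 3.44 CPM in scramble and 5.54 to 7.70 CPM in shMCT-1, nearly all of it Cd68. The 3 endothelial markers summed to at most 0.331 CPM in scramble and 1.85 CPM in shMCT-1. Of the receptors that define the tumor subtype, Pgr had no count. Esr1 lay at 2.55 to 3.40 CPM in scramble and 4.39 to 4.69 CPM in shMCT-1. Erbb2 mRNA lay at 54.6 to 57.3 CPM in scramble and 62.2 to 72.7 CPM in shMCT-1. Mitochondrial transcripts took 1.97% to 2.52% of the counts in scramble and 0.84% to 1.53% in shMCT-1. The part of these differences between the lines in the results that follow was not tested.

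The promoter of Socs3 is shown because this gene is the feedback target of STAT3 in the set, and that of Il6st because gp130 had the largest difference between the lines across both treatments. RefSeq (GRCm38.p6) held a window of 300 bases, from 250 before to 50 after the start of transcription, for all 10 genes. The motif TTCNNNGAA, the core of the element that STAT dimers bind, reads the same on both strands. It was present in 8.3% of the 32851 promoter windows of this length. Of the 10 genes, Socs3 alone held it, once, beginning 154 bases before the start, and capitals mark it in the first sequence. The windows lie at chr11:117969317-117969616 on the minus strand and at chr13:112463820-112464119 on the plus strand. RefSeq starts Socs3 inside the span that GENCODE M21 gives it.
Socs3: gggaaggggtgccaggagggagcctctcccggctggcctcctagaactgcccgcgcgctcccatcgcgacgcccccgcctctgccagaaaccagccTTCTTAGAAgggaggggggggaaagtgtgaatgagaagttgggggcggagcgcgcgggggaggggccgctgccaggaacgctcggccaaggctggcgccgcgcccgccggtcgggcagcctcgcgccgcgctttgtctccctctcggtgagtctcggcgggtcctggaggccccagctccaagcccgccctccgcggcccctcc
Il6st: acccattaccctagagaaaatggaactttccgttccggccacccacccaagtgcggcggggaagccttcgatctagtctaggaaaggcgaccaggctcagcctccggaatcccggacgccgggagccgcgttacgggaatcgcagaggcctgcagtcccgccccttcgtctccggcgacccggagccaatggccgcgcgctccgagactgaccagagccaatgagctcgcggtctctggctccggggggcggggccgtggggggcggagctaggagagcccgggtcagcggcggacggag
A match is a string of letters, not a site shown to be occupied, and its absence from the other windows speaks only of these bases.

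The shMCT-1 cells held less mRNA of 3 receptor chains, of Jak1 and of Socs3 than scramble cells, whichever antibody was present, while Stat3, Jak2 and Tyk2 were not called. Within IgG, 5 of the 9 tested genes were lower in shMCT-1 and none was higher at an adjusted p-value under 0.05, where 26.2% of all tested genes were called lower and 28.3% higher. Within anti-IL-6R, 6 of the 9 were lower and none higher, against 27.3% and 26.9% of all genes. With both treatments in 1 additive model, which sets 4 libraries against 4, the same test called 6 lower and none higher, against 34% and 35%. The median log2 fold change of the 9 genes was -0.46 within IgG, -0.71 within anti-IL-6R and -0.59 across both, and that of all tested genes was 0.01 in each. Every one of the 9 exceeded the filter of 1 CPM in all 8 libraries, the lowest value being 3.46 CPM for Osmr. In bulk RNA, fewer cells that express a gene and less of its RNA per cell cannot be told apart.

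**Figure D1:**
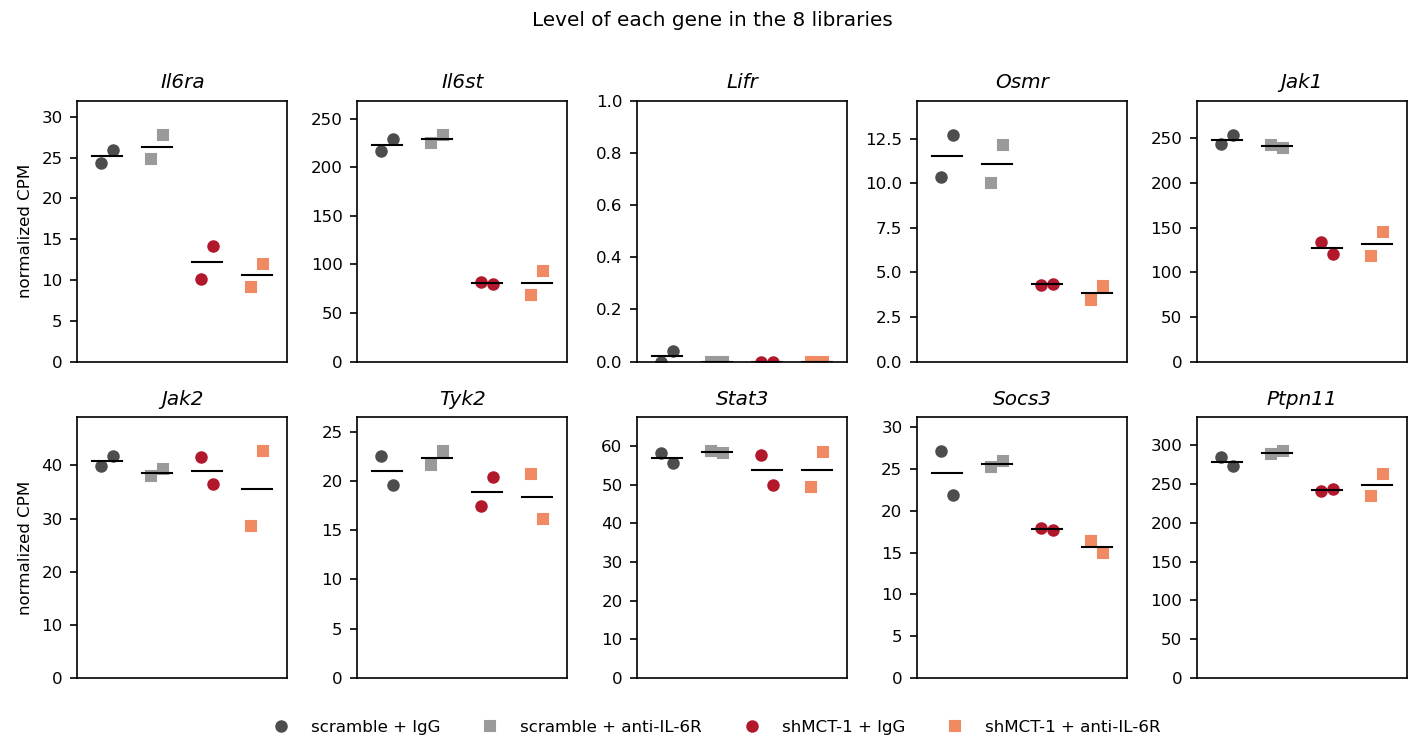
Normalized CPM (y axis, linear, from 0) of each gene in the 8 libraries. Circles and squares are the libraries of the 4 groups and black lines their means (n = 2). The 4 shMCT-1 libraries lie below the 4 scramble libraries for Il6ra, Il6st, Osmr, Jak1, Socs3 and Ptpn11, and the lines overlap for Jak2, Tyk2 and Stat3.

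Il6st (ENSMUSG00000021756, chromosome 13 of GRCm38 from 112464070 to 112510086, plus strand, in GENCODE M21), the shared signaling chain of the family, had the largest difference across both treatments. Its level was 217 and 229 CPM in scramble + IgG and 81.8 and 79.9 CPM in shMCT-1 + IgG. With anti-IL-6R it was 225 and 233 CPM in scramble and 69.1 and 93.7 CPM in shMCT-1. Every shMCT-1 library was below every scramble library in both treatments. The log2 fold change was -1.46 (standard error 0.13) within IgG and -1.49 (0.13) within anti-IL-6R, with adjusted p = 2.52e-05 and 2.02e-05 from edgeR. Across both treatments Il6st stood 2.79-fold lower in shMCT-1, and 91.9% of the tested genes changed by less in either direction.

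Il6ra (ENSMUSG00000027947, chromosome 3 from 89864059 to 89913196, minus strand), which encodes the chain that binds IL-6 and that the antibody recognizes, was also lower. It had 24.4 and 26.0 CPM in scramble + IgG against 10.2 and 14.2 CPM in shMCT-1 + IgG. With anti-IL-6R the values were 24.9 and 27.8 CPM in scramble and 9.19 and 11.9 CPM in shMCT-1. All scramble libraries were above all shMCT-1 libraries. The log2 fold change was -1.04 (standard error 0.17, adjusted p = 0.000651 from edgeR) within IgG and -1.31 (0.17, adjusted p = 0.000195) within anti-IL-6R.

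Osmr (ENSMUSG00000022146, chromosome 15 from 6813577 to 6874969, minus strand) encodes the chain that joins gp130 in the oncostatin M receptor. Its level was 10.4 and 12.7 CPM in scramble + IgG and 4.32 and 4.33 CPM in shMCT-1 + IgG. Under anti-IL-6R it had 10.0 and 12.1 CPM in scramble and 3.46 and 4.25 CPM in shMCT-1. The log2 fold changes of -1.41 (standard error 0.18) and -1.52 (0.18) had adjusted p = 0.000178 and 0.000123 from edgeR. Across both treatments the 95% intervals of Osmr (-1.73 to -1.20) and Il6st (-1.67 to -1.29) overlapped.

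Lifr (ENSMUSG00000054263, chromosome 15 from 7090614 to 7197489, plus strand), the receptor chain for leukemia inhibitory factor, was at the floor. It had 1 count in the second library of scramble + IgG and 0 counts in the other 7 libraries. A count of 0 allows up to 3 counts, which is 0.0907 CPM in the largest library and 0.151 CPM in the smallest, an allowance that covers counting error only. Lifr lies 216 kb from Osmr on the same chromosome, but neither line gave enough counts of Lifr for a comparison.

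Of the 3 kinases Jak1 was called lower in shMCT-1, and Jak2 and Tyk2 were not called. The difference between the kinases was not tested. Jak1 (ENSMUSG00000028530, chromosome 4 from 101152367 to 101265282, minus strand), the kinase on which gp130 signaling chiefly rests, had 243 and 254 CPM in scramble + IgG and 133 and 121 CPM in shMCT-1 + IgG. With anti-IL-6R it had 242 and 239.7 CPM in scramble and 118 and 145 CPM in shMCT-1. The groups did not overlap, with log2 fold changes of -0.97 (standard error 0.11, adjusted p = 8.95e-05 from edgeR) within IgG and of -0.88 (0.11, adjusted p = 0.000147) within anti-IL-6R.

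Jak2 (ENSMUSG00000024789, chromosome 19 from 29251828 to 29313080, plus strand), which also serves cytokine receptors such as that of erythropoietin, had 39.9 and 41.7 CPM in scramble + IgG and 41.6 and 36.4 CPM in shMCT-1 + IgG. With anti-IL-6R it had 38.1 and 39.2 CPM in scramble and 28.5 and 42.6 CPM in shMCT-1. The last 2 libraries stood on either side of all the others, and the lines overlapped. Its log2 fold change across both treatments was -0.09 (95% interval -0.32 to 0.14, adjusted p = 0.453 from edgeR). Under the antibody the value of -0.12 rested on which of those 2 libraries was kept: it was 0.16 without the first and -0.43 (adjusted p = 0.0115 from edgeR) without the second.

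Tyk2 (ENSMUSG00000032175, chromosome 9 from 21104068 to 21131243, minus strand), the kinase shared with interferon receptors, had 22.5 and 19.6 CPM in scramble + IgG and 17.4 and 20.4 CPM in shMCT-1 + IgG. In the anti-IL-6R groups it had 21.6 and 23.0 CPM in scramble and 20.7 and 16.1 CPM in shMCT-1. The lines overlapped within IgG and not within anti-IL-6R. Across both treatments its log2 fold change was -0.22 (95% interval -0.43 to -0.01), and its adjusted p of 0.0611 from edgeR missed the threshold. A call was gained in 4 of 12 other settings there and, within anti-IL-6R, in 1 of 13.

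Stat3 (ENSMUSG00000004040, chromosome 11 from 100885098 to 100939540, minus strand), the transcription factor at the end of the relay, was not called in any comparison. It had 58.3 and 55.6 CPM in scramble + IgG, 57.6 and 49.96 CPM in shMCT-1 + IgG, 58.6 and 58.2 CPM in scramble + anti-IL-6R, and 49.4 and 58.3 CPM in shMCT-1 + anti-IL-6R. The ranges of the lines overlapped. The difference of -0.10 on the log2 scale across both treatments had a 95% interval of -0.25 to 0.05 (adjusted p = 0.224 from edgeR). The gene overlaps Stat5a on the other strand, between 100885098 and 100885169. Whether the counting used strand is not given in the sources used here. If it did not, reads from this stretch could not be assigned to either gene by position alone. The stretch is short beside the 9527 bases of annotated Stat3 exon. Over the 8 libraries Stat5a had a mean of 8.13 CPM and Stat3 of 55.7 CPM. Annotated genes also overlap Il6ra, Jak1, Tyk2 and Ptpn11, each at a mean of at most 0.696 CPM.

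Socs3 (ENSMUSG00000053113, chromosome 11 from 117966079 to 117970047, minus strand), the feedback inhibitor whose promoter is printed above, was lower in shMCT-1. Its level was 27.1 and 21.9 CPM in scramble + IgG and 17.9 and 17.7 CPM in shMCT-1 + IgG. Under anti-IL-6R it was 25.3 and 26.0 CPM in scramble and 16.4 and 15.01 CPM in shMCT-1. The libraries of the lines did not overlap, and the log2 fold change was -0.46 (standard error 0.12, adjusted p = 0.00817 from edgeR) within IgG and -0.71 (0.12, adjusted p = 0.000851) within anti-IL-6R. Without the second library of shMCT-1 + IgG, the adjusted p within IgG rose to 0.0508.

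Ptpn11 (ENSMUSG00000043733, chromosome 5 from 121130533 to 121191397, minus strand) encodes the phosphatase SHP2, which links gp130 to the MAPK branch and competes there with SOCS3. It had 284 and 273 CPM in scramble + IgG and 241 and 243 CPM in shMCT-1 + IgG. With anti-IL-6R the values were 289 and 292 CPM in scramble and 235 and 263 CPM in shMCT-1. The lines did not overlap, yet the difference was small, at -0.20 (standard error 0.08, adjusted p = 0.0651 from edgeR) within IgG and -0.22 (0.08, adjusted p = 0.0452) within anti-IL-6R. Within IgG a call was gained in 4 of 13 other settings, with an adjusted p down to 0.0286. Across both treatments the value of -0.21 (0.05) was called with an adjusted p of 0.00491. The call within anti-IL-6R was lost in 7 of 13 other settings, with an adjusted p of up to 0.241.

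Taking single libraries rather than fits, 6 of the 9 genes (Il6ra, Il6st, Osmr, Jak1, Socs3 and Ptpn11) had all 4 shMCT-1 libraries below all 4 scramble libraries, as did 31.4% of the tested genes. None had all 4 above, which 33% of the tested genes did.

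**Figure D2:**
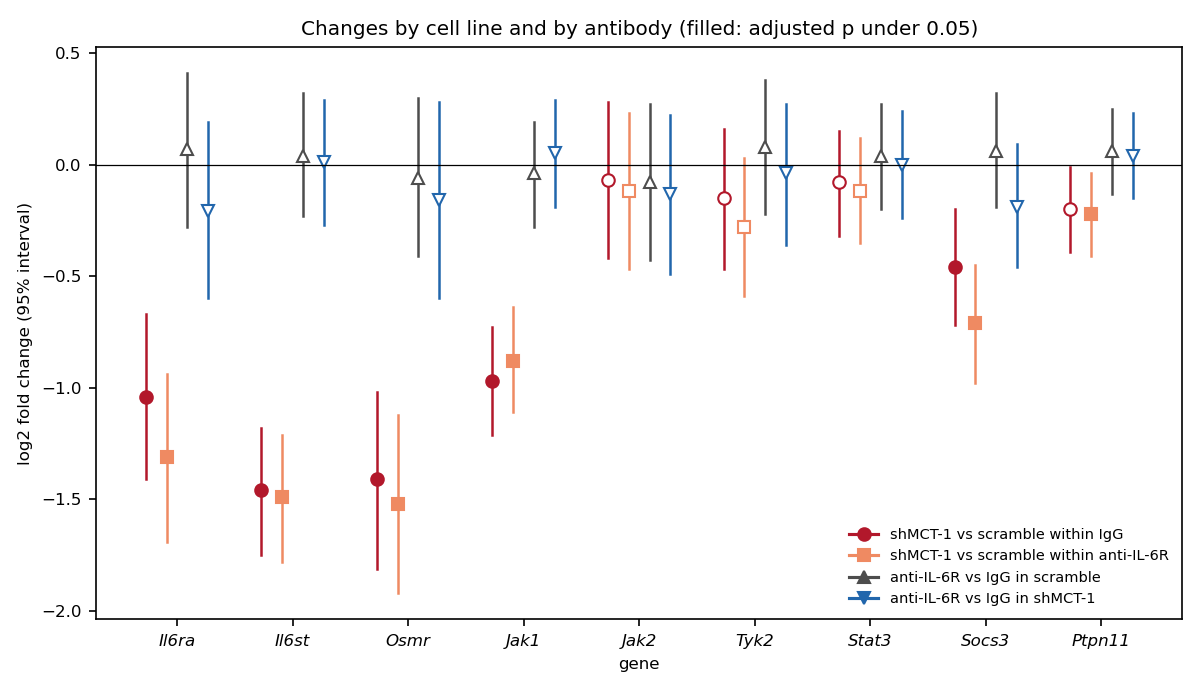
Log2 fold change (y axis) of the 9 tested genes in 4 comparisons, with 95% intervals from edgeR as vertical lines and filled symbols where the adjusted p is under 0.05. The differences between the lines reach -1.52 for Osmr, and the antibody differences lie between -0.21 and 0.08.

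The antibody comparison asked whether adding anti-IL-6R changed the transcripts of the receptor complex. Il6 itself was nearly silent, as given below, and whether the antibody blocked signaling in these cultures was not tested. None of the 9 genes passed the test in scramble or in shMCT-1 cells, and none had an unadjusted p under 0.05 in either. Among all 12704 tested genes, 0% were called in scramble and 0% in shMCT-1 by edgeR's quasi-likelihood test, with 166 and 505 genes at an unadjusted p under 0.05. Leaving out 1 library moved the latter counts to 59 to 1901 in scramble, the highest without scramble + IgG replicate 1, where 14 genes were called, and to 177 to 1333 in shMCT-1, the highest without shMCT-1 + anti-IL-6R replicate 2, where 1 was called. With 1 library left out, the log2 fold changes of the 9 genes reached as far as 0.23 in scramble (Socs3) and -0.44 in shMCT-1 (Jak2). The exact test of edgeR called 10 and 14 genes and DESeq2 0 and 11, none of them among the 9. In scramble the log2 fold changes ran from -0.08 for Jak2 to 0.08 for Tyk2, and the 95% intervals of the 9 genes together spanned -0.43 to 0.41. In shMCT-1 they ran from -0.21 for Il6ra to 0.05 for Jak1, with intervals between -0.60 and 0.29. Joining both lines gave values from -0.10 to 0.05, with 0% of all genes called (355 at an unadjusted p under 0.05, and 1 called by DESeq2).

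For Socs3, the feedback target of STAT3, the antibody difference was 0.06 on the log2 scale in scramble (95% interval -0.19 to 0.32) and -0.19 in shMCT-1 (-0.46 to 0.09). Stat3 itself differed by 0.04 in scramble (-0.20 to 0.27) and 0.00 in shMCT-1 (-0.24 to 0.24), and Il6ra, the gene of the antibody's target, by 0.07 (-0.28 to 0.41) and -0.21 (-0.60 to 0.19). With 2 libraries a group, changes of the sizes inside these intervals were not excluded.

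Whether the antibody acted differently in the lines was tested by the interaction of both factors. No gene of the 9 was called and none had an unadjusted p under 0.05, as 0% of all tested genes were called (315 at an unadjusted p under 0.05, and 6 called by DESeq2). Without scramble + IgG replicate 1 the test called 8 genes and put 1411 at an unadjusted p under 0.05, again with none of the 9 called. The estimates were lowest for Il6ra, at -0.27 (standard error 0.24), and Socs3, at -0.25 (0.17), and highest for Jak1, at 0.09 (0.15). Leaving out 1 library carried them as far as -0.49 for Il6ra and 0.26 for Jak1.

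Levels of different genes were set side by side only per length, as normalized CPM per kb of annotated exon. In scramble + IgG, Ptpn11 (37.2 ± 1.09, SD, n = 2) and Jak1 (34.4 ± 1.04) stood highest, followed by Il6st at 20.1 ± 0.753. Socs3 (8.47 ± 1.27) and Jak2 (8.12 ± 0.252) differed by less than the spread of Socs3. Tyk2 (3.07 ± 0.300) and Il6ra (2.91 ± 0.130) differed by less than the spread of Tyk2. Stat3 lay between these pairs at 5.98 ± 0.201, and Osmr was at 0.953 ± 0.137. In shMCT-1 + IgG the order changed around gp130: Ptpn11 was at 32.3 ± 0.177 and Jak1 at 17.6 ± 1.22, and Il6st, at 7.28 ± 0.126, then differed from Jak2, at 7.76 ± 0.727, by less than the spread of Jak2. Il6ra stood at 1.41 ± 0.330 and Osmr at 0.357 ± 0.00082.

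**Figure D3:**
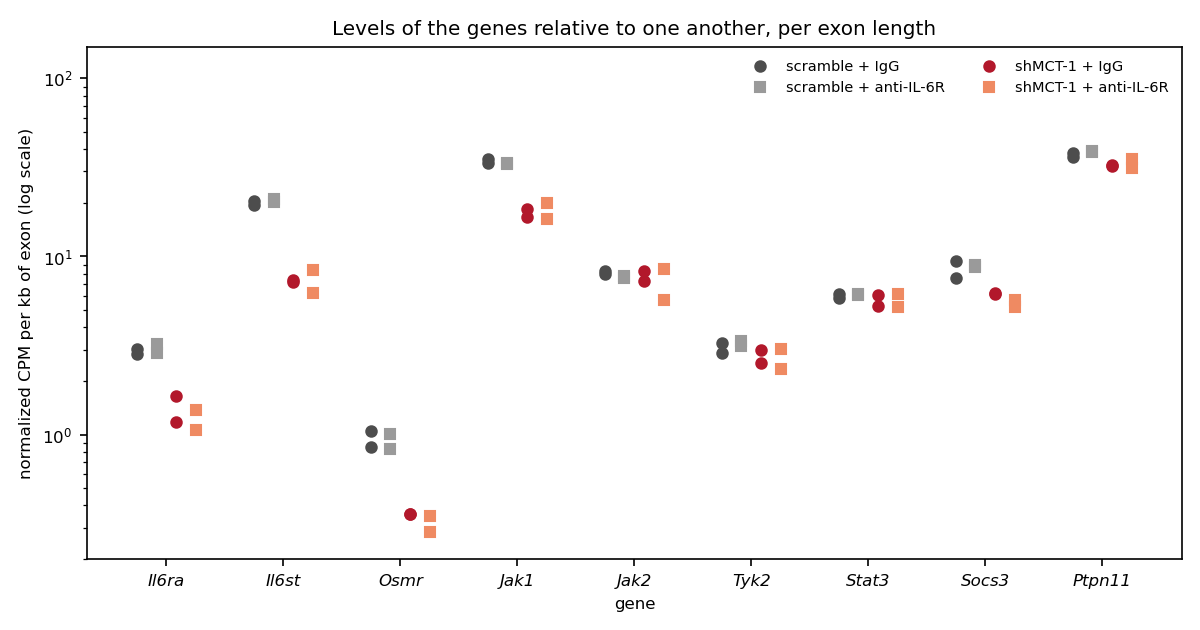
Normalized CPM per kb of exon (y axis, log scale) of 9 genes in each library, with symbols for the 4 groups. In the scramble groups Il6st lies above Jak2, Stat3 and Socs3, and in the shMCT-1 groups it lies among or just above them. Lifr, at 0 in 7 libraries, is not drawn.

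The balance of the complex was described from the same scale, with no test. The receptor chains together summed to 23.2 to 25.3 CPM per kb in the scramble libraries and 7.57 to 10.2 in the shMCT-1 libraries. Il6st exceeded Il6ra by a ratio of 6.55 to 7.06 in scramble and of 4.38 to 6.27 in shMCT-1, so gp130 mRNA remained the more abundant chain. Osmr kept a share of 3.44% to 4.25% of the receptor chains in scramble and of 3.45% to 4.00% in shMCT-1. The 3 kinases summed to 44.2 to 46.3 CPM per kb in scramble and 24.98 to 30.9 in shMCT-1. Jak1 made up 74.8% to 75.9% of them in scramble and 62.1% to 65.3% in shMCT-1, and the share of Jak2 went from 17.1% to 17.9% in scramble to 22.7% to 28.3% in shMCT-1. Socs3 per Stat3 was 1.30 to 1.53 in scramble and 0.848 to 1.17 in shMCT-1. Among these quantities the lines overlapped in the share of Osmr only.

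Around the core, 75 further genes of the pathway were listed by role, and 66 of them were tested. Across both treatments 24 were higher and 22 lower in shMCT-1, where 35% of all tested genes were higher and 34% lower, with a median log2 fold change of 0.04 against 0.01 for all tested genes. In the 3 antibody comparisons none of the 66 was called. An unadjusted p under 0.05 was reached by none of them in scramble, by 4 in shMCT-1 (Clcf1, Jak3, Stat2 and Fos) and by 2 with the lines joined.

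Of 10 ligands of the family, 6 were tested, of which 1 was higher and 2, Clcf1 and Lif, were lower (median -0.24, against 35% of all tested genes higher and 34% lower). Il6 was nearly silent. It had 0.425 and 0.331 CPM in scramble + IgG, 0.315 and 0.502 in scramble + anti-IL-6R, 0.279 and 0.173 in shMCT-1 + IgG, and 0 and 0.0924 in shMCT-1 + anti-IL-6R. The lower library of each group rested on 8, 10, 4 and 0 counts in the same order, and Il6 was not tested. Clcf1, a cardiotrophin-like cytokine, lay at 107 to 122 CPM in scramble and 55.6 to 91.3 CPM in shMCT-1 (log2 fold change -0.70, standard error 0.11, adjusted p = 0.000226 from edgeR). Lif, whose receptor chain Lifr was at the floor, was abundant at 107 to 113 CPM in scramble and 78.4 to 91.9 CPM in shMCT-1 (-0.33, 0.06, adjusted p = 0.000681). Il11, Ctf1 and Cntf, at a mean of at most 1.39, 6.91 and 2.25 CPM in any group, were not called, with log2 fold changes of 0.56, -0.33 and -0.14.

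Among 8 other receptor chains and shedding genes, 5 were tested, with 2 higher and 1 lower in shMCT-1 (median 0.20), against 35% and 34% of all tested genes. Adam17 encodes a protease that cuts IL-6Rα from the cell surface. It fell from 111 to 126 CPM in scramble to 71.7 to 80.2 CPM in shMCT-1 (log2 fold change -0.61, standard error 0.06, adjusted p = 7.54e-06 from edgeR). Rhbdf1, an inactive rhomboid that brings ADAM17 to the surface, rose by 0.29 (0.08, adjusted p = 0.00714). The other one higher was Adam10, a protease related to ADAM17, at 0.20 (0.08, adjusted p = 0.0327), named here after its value was seen.

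Of 7 relatives of the kinases and of STAT3, 6 were tested, of which 4 were higher and none lower (median 0.37), against 35% and 34% of all tested genes. Stat5a, which prolactin and growth hormone activate, lay at 4.25 to 5.66 CPM in scramble and 9.58 to 13.8 CPM in shMCT-1 (log2 fold change 1.10, standard error 0.13, adjusted p = 3.25e-05 from edgeR).

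Of 14 other negative regulators, 4 were higher, 4 lower and 6 not called (median -0.09), against 35% higher and 34% lower among all tested genes. The inhibitors Cish and Socs2, both known targets of STAT5, rose by 1.21 (standard error 0.15, adjusted p = 3.26e-05 from edgeR) and 0.96 (0.12, adjusted p = 4.24e-05). Cish lay at 2.22 to 3.11 CPM in scramble and 5.51 to 6.68 CPM in shMCT-1. Socs4 and Socs5, like Socs3 members of the SOCS family, fell by 0.76 (0.08, adjusted p = 1.66e-05) and 0.61 (0.05, adjusted p = 3.06e-06). Socs5 lay at 61.1 to 65.9 CPM in scramble and 40.2 to 43.2 CPM in shMCT-1. Socs3 thus moved in the direction of Socs4 and Socs5 and against Socs2 and Cish, but these 4 were named as the largest falls and rises of the list. Beyond that choice, Socs1, Socs6 and Socs7 were not called within IgG (-0.22, -0.10 and -0.07). Nor were they called within anti-IL-6R (-0.29, -0.08 and -0.20). Both of these comparisons set 2 libraries against 2, whereas the calls above set 4 against 4.

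The branch from SHP2 to MAPK and PI3K held 5 genes that were higher and 8 that were lower among 16 (median -0.13), against 35% and 34% of all tested genes. Hras, a RAS GTPase, rose by 0.60 (standard error 0.07, adjusted p = 1.63e-05 from edgeR), and Gab2, a docking adaptor for SHP2, by 0.46 (0.08, adjusted p = 0.00048). The exchange factors Sos1 and Sos2, which load RAS with GTP, fell by 0.72 (0.11, adjusted p = 0.000197) and 0.64 (0.10, adjusted p = 0.000133). Sos1 went from 72.6 to 84.7 CPM in scramble to 37.8 to 58.2 CPM in shMCT-1.

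Of 20 listed genes known to respond to STAT3, 19 were tested, with 8 higher and 7 lower in shMCT-1 and a median log2 fold change of 0.09. Among all tested genes the shares were 35% higher and 34% lower. Lcn2, which encodes lipocalin 2, lay at 18.9 to 28.2 CPM in scramble and 5.01 to 8.36 CPM in shMCT-1 (-1.98, standard error 0.17, adjusted p = 2.6e-06 from edgeR). Cebpb, the gene of an inflammatory transcription factor, lay at 338 to 382 and 139.8 to 166 CPM (-1.28, 0.07, adjusted p = 1.58e-07). In the other direction, Timp1, a metalloprotease inhibitor, lay at 64.4 to 74.4 CPM in scramble and 128 to 152 CPM in shMCT-1 (0.96, 0.07, adjusted p = 1.14e-06). Bcl3, an NF-κB cofactor, rose by 0.99 (0.15, adjusted p = 0.000137).

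**Figure D4:**
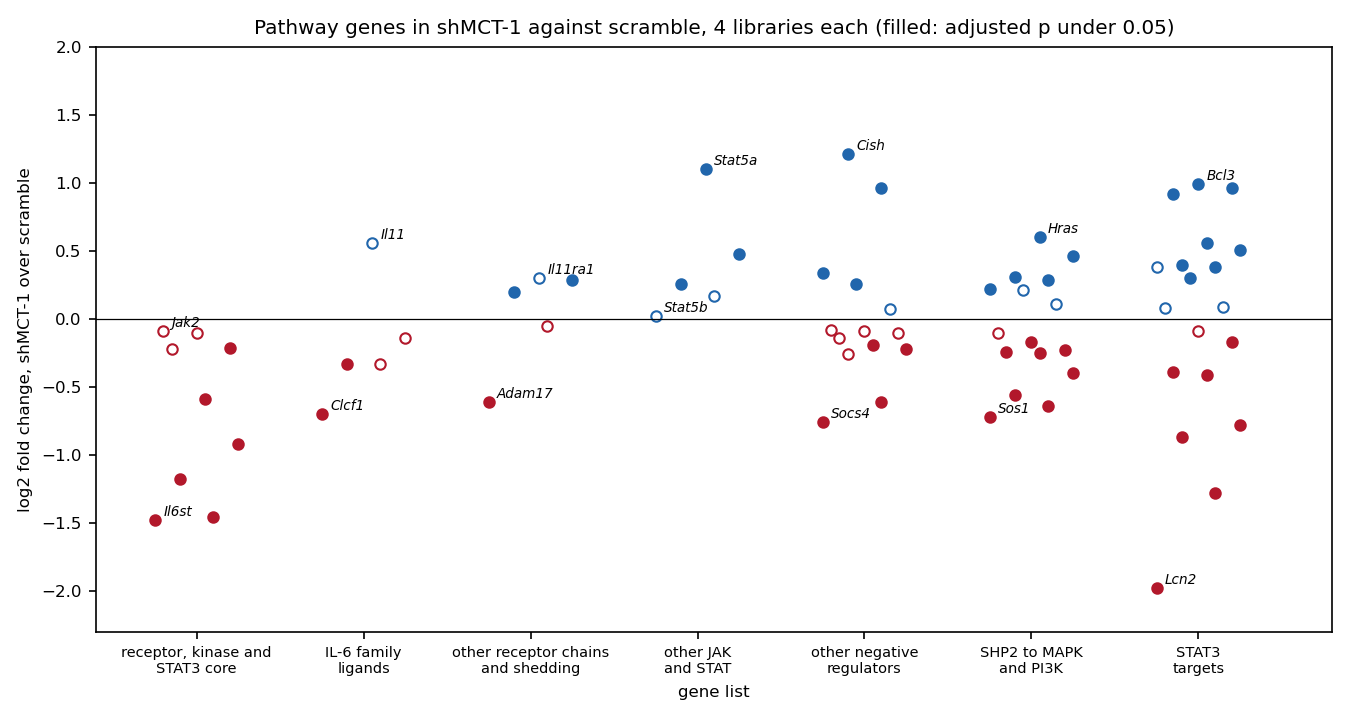
Log2 fold change of shMCT-1 over scramble (y axis, 4 libraries each, additive model) for the tested genes of each list (x axis), with red below and blue above 0 and filled circles where the adjusted p is under 0.05. The core genes all lie at or below -0.09, and the other lists spread to both sides or, for the other JAK and STAT genes, lie above 0. The lowest and highest gene drawn in each list are named, and 2 tested genes that are not reported here are not drawn.

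The genome around the core genes was not level between the lines. The median log2 fold change over all tested genes of chromosome 13, which holds Il6st, was -0.42. Within 1 Mb of Il6st 10 of 12 tested neighbours were called lower and 2 higher (median -0.61). Across both treatments, the comparison used here, 34% of all tested genes were called lower and 35% higher. Il6st lay 1.06 log2 units below the median of its chromosome. The part of this chromosome-wide shift in the difference of Il6st was not tested. For the other called genes the chromosome medians were 0.11 for Il6ra (chromosome 3), 0.17 for Osmr (chromosome 15), -0.08 for Jak1 (chromosome 4), 0.15 for Socs3 (chromosome 11) and -0.02 for Ptpn11 (chromosome 5). Among chromosomes with none of the 10 genes, chromosomes 2 and 12 had medians of -0.37 and -0.35, and chromosomes 1 and 14 of 0.21 and 0.20. Lcn2 and Cebpb lie on chromosome 2, and Adam17 and Sos2 on chromosome 12. The part of these shifts in the differences of those 4 genes was not tested. Within 1 Mb of Il6ra, 39 of 62 tested neighbours were called higher and 6 lower (median 0.52). Around Ptpn11 19 of 29 were called higher and 4 lower (median 0.40), and around Socs3 10 of 22 were called higher and 5 lower (median 0.15). Around Osmr 2 of 7 were called lower and 2 higher (median 0.12), and around Jak1 1 of 6 was called lower and 1 higher (median -0.12). The part of these surroundings in the differences of the genes was not tested.

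**Figure D5:**
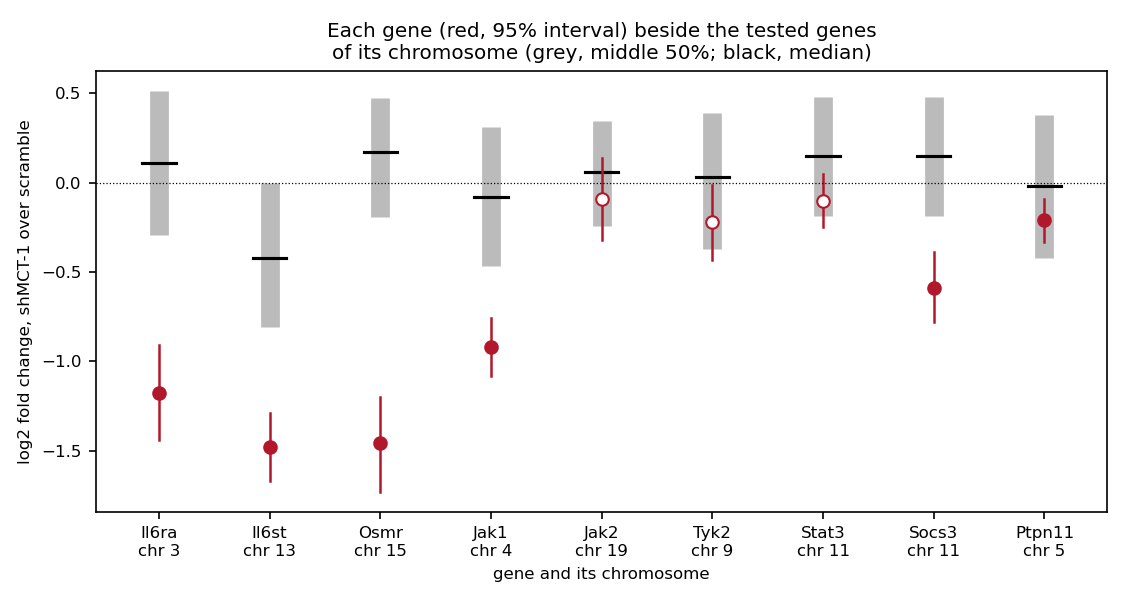
Log2 fold change of shMCT-1 over scramble (y axis, 4 libraries each) of the 9 tested genes, in red with 95% intervals and filled where the adjusted p is under 0.05, beside the middle 50% (grey bar) and the median (black line) of the tested genes on the same chromosome. The median of chromosome 13, beside Il6st, is -0.42, and the other medians drawn lie between -0.08 and 0.17.

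The genes whose levels over the 8 libraries were most like those of the core were sought among 8818 tested genes with a mean of at least 10 CPM. For Il6st they were Dhrs9, Nsd2 and Ablim1 (Pearson's r of log2 CPM 0.999 each), for Il6ra they were Ranbp6 (0.997), Mllt10 (0.995) and Ago3 (0.995), and for Socs3 they were Abca7 (0.991), Galk2 (0.987) and Mafg (0.987). As the libraries fall into 2 lines, genes that differ between them can score high, and an r above 0.9 was reached by 2122 genes for Il6st, 1842 for Il6ra and 731 for Socs3.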

How the data were processed

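RNA sequencing of 4T1 cells was available for 4 groups of 2 libraries, grouped by the sample labels. Per the submitters' processing notes and the study's methods, reads were trimmed (cutadapt 1.18) and mapped to mm10 (STAR 2.7.0d), and the authors deposited RSEM expected counts per gene, not normalized for depth or length. Whether unique molecular identifiers or strand entered the counting is not given in the sources used here. Of the values above 0, 29.6% were not whole, and all were rounded to whole counts before testing, so that fractional assignment of shared reads is carried into the counts. The filter asked for over 1 CPM in 2 or more libraries. TMM factors and the quasi-likelihood test of edgeR 4.0.16 (R 4.3.3) were used with 4 group means, or with an additive model of line and antibody, over all 8 libraries, with Benjamini-Hochberg adjustment over 12704 genes. Standard errors were derived from the same test, as the absolute log2 fold change divided by the square root of its F statistic. The 95% intervals used these standard errors and the t distribution. Positions and exon lengths come from GENCODE M21 (GRCm38), in which 54409 of 54532 identifiers were found, and promoter sequences from RefSeq. The 10 genes and the lists were chosen with earlier results of these data known. Beyond them, the text names Mcts1, the ligands with a mean of at least 1 CPM in a group and Il6, from each other list the 2 largest rises and falls among called genes without overlap between the lines, and the 3 genes most correlated with Il6ra, Il6st and Socs3. Exceptions are stated, as are marker genes, and some genes that this rule names are not reported here. Alternatives were RLE size factors, no filter, DESeq2 1.42.0, a replicate block, edgeR's exact test and leaving out each library. With 2 libraries against 2, an exact two-sided permutation p cannot go below 0.333, so none was used.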

Additional observations from a re-analysis of the deposited data

How the results depend on the processing

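The number of the 9 genes called changed by less than 1.5 times in every comparison and setting tried. Leaving out each library in turn gave 4 to 6 within IgG, 5 to 7 within anti-IL-6R, 6 to 7 across both treatments and 0 in the antibody and interaction comparisons, where the lone library of a group was assumed to vary like those of the other groups. Of 792 values of single genes under another setting, 734 kept their direction and side of the threshold, 8 lost a call, 10 gained one and 40 changed sign, all 40 for genes not called in that comparison, with values that round to 0.00 given no sign. Tyk2 gained a call across both treatments in 4 of 12 settings, with an adjusted p down to 0.0283, and within anti-IL-6R in 1 of 13 (0.0293, without shMCT-1 + anti-IL-6R replicate 1). Ptpn11 gained a call within IgG in 4 of 13 settings, with an adjusted p down to 0.0286. The cause was not tested.

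The log2 fold changes that changed sign did so when 1 library was left out. Between the lines within IgG, Jak2 then ranged from -0.16 to 0.03 and Stat3 from -0.19 to 0.02. Within anti-IL-6R, Jak2 ranged from -0.43 to 0.16 and Stat3 from -0.23 to 0.01, and across both treatments Jak2 ranged from -0.21 to 0.02. For the antibody in scramble, the ranges were -0.02 to 0.14 for Il6ra, -0.20 to 0.10 for Osmr, -0.01 to 0.19 for Tyk2 and -0.08 to 0.23 for Socs3. In shMCT-1 they were -0.43 to 0.06 for Il6ra, -0.22 to 0.23 for Il6st, -0.10 to 0.20 for Jak1, -0.44 to 0.14 for Jak2, -0.22 to 0.13 for Tyk2 and -0.04 to 0.13 for Ptpn11. With both lines joined they were -0.12 to 0.06 for Il6ra, -0.06 to 0.11 for Il6st, -0.04 to 0.09 for Tyk2 and -0.03 to 0.07 for Stat3. The interaction ranged from -0.25 to 0.19 for Il6st, -0.26 to 0.05 for Osmr, -0.05 to 0.26 for Jak1, -0.36 to 0.23 for Jak2, -0.29 to 0.06 for Tyk2, -0.14 to 0.10 for Stat3 and -0.09 to 0.08 for Ptpn11. Stat3 for the antibody in shMCT-1 and Jak1 with both lines joined, at 0.00 in the full data, ranged from -0.11 to 0.13 and from -0.07 to 0.05.

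With the replicate number as a block, 5 of the 9 genes were called within IgG, 6 within anti-IL-6R and 6 across both treatments, and none with the antibody or in the interaction, the same numbers as without it. The deviations of libraries with the same number correlated at -0.0797 to 0.106 between groups, so the numbers were not taken as pairs. Over all genes, where the quasi-likelihood test called 0, the fit without the filter called 64 genes for the antibody in scramble, 133 in shMCT-1, 73 with both lines joined and 97 in the interaction, none of them among the 9. The exact test called 10 and 14 for the antibody in scramble and shMCT-1, and DESeq2 called 0, 11, 1 and 6 in these 4 comparisons. Without 1 library, the genes at an unadjusted p under 0.05 for the antibody numbered 59 (scramble + anti-IL-6R replicate 1 left out) to 1901 (scramble + IgG replicate 1) in scramble, 177 (shMCT-1 + IgG replicate 2) to 1333 (shMCT-1 + anti-IL-6R replicate 2) in shMCT-1, 160 to 842 with both lines joined and 130 to 1411 in the interaction. Lifr and Il6 had too few counts at these depths to be tested.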
